A study of Mus musculus with 10 samples.

Results

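A set of 10 genes that mark the Lgr5+ stem cell of the intestinal crypt or are switched on by Wnt signalling was followed across 10 RNA-seq libraries of mouse ileal crypts. The genes were taken from a fixed list of symbols: Lgr5, Olfm4, Ascl2, Smoc2, Slc12a2, Rnf43, Znrf3, Axin2, Ephb2 and Ephb3. They were found by Ensembl ID among the 28987 gene IDs of the libraries, and all 10 were among the 13056 genes that were kept for testing, those reaching 1 TPM as deposited in 2 or more libraries. The libraries fall into 3 genotypes, 5 labelled OE, 2 labelled KO and 3 labelled Ctrl. The OE mice are labelled VilCreER;icS5 (STAT5IEC+++), the KO mice VilCreER;Stat5 (STAT5IEC-/-) and the Ctrl mice VilCreER;Stat5 (STAT5+/+). All are labelled male, C57Bl6 and 12 weeks of age, and all carry VilCreER, a Cre recombinase that the Villin promoter drives in the gut epithelium. The icS5 allele is not spelled out in the labels, no control of that line was analysed here, and no induction of the Cre is described. Crypts were shaken off the tissue in 10 mM EDTA at 37 C for 30 min, and the study's title concerns Stat5, Paneth cells and Wnt signalling. The labels do not say that the libraries of a group came from separate animals, so p-values reflect how much these samples differ among themselves, which may in part be technical.

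Crypts are renewed by Lgr5+ stem cells that lie between Paneth cells at the crypt base. Wnt ligands bind Frizzled and Lrp receptors there and stabilise beta-catenin, which with factors of the TCF family turns on target genes such as Lgr5, Ascl2, Axin2 and the Ephb receptors. R-spondins bind Lgr5 and its relatives and take the ubiquitin ligases Rnf43 and Znrf3 off the cell surface, which keeps Frizzled receptors in place, while Axin2 feeds back to break beta-catenin down.

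Levels were deposited as TPM, which correct for transcript length, so genes can be set side by side. Each library was divided by its own factor, the median ratio over the 11146 genes detected throughout, and the result is termed scaled TPM. Levels are means ± SD of scaled TPM. Differences are from limma on log2(scaled TPM + 1), with Benjamini-Hochberg adjustment over all genes tested and a threshold of 0.05. Since read numbers cannot be had from TPM, sequencing depth is unknown and counting error cannot be stated.

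Ctrl 2 stood apart from the other libraries. The share of mitochondrially encoded transcripts was 83.7% there and 43.3% to 57.0% in the others, and it had 8263 genes at 1 TPM or more, against 11050 to 11932. Its summed enterocyte markers were the highest, at 15126 scaled TPM (as deposited they were higher in OE 1), and its summed Paneth and cell division markers the lowest, at 434 and 75.1. The Y-linked genes summed to 0.21, 0.12 and 2.65 scaled TPM in OE 3, OE 4 and Ctrl 3 although these mice are labelled male, and to 39.2 or more in the others. Stat5b stood at 1.49, 3.50, 4.71, 5.53 and 2.65 scaled TPM in OE 1 to OE 5, at 0.482 and 0.430 in KO 1 and KO 2, and at 1.72, 1.76 and 0.970 in Ctrl 1 to Ctrl 3. Stat5a stood at 1.56 to 3.55 in OE, 0.637 and 0.336 in KO and 1.07 to 2.60 in Ctrl. The library labelled OE 1 thus lay within the Ctrl range for both genes, and each value of the OE group below includes it. Epcam, an epithelial surface protein, was at 351 to 708 scaled TPM in the 10 libraries, so the labelled tissue carried its epithelial marker throughout.

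No difference of the 10 genes between genotypes passed the test set against the spread of the libraries. In OE against Ctrl, KO against Ctrl and OE against KO, 0 of the 10 passed the limma test, and the same test called 0% of the 13056 genes in each comparison. At an unadjusted p under 0.05, limma listed 797, 452 and 385 of the 13056 genes in these comparisons, and 0 of the 10 in any of them. With shares this small, 0 among 10 genes says little about the 10. The order of levels was alike in the genotypes at the top: Olfm4 was the most abundant of the 10 in every library, at 204 ± 156 scaled TPM in OE, 179 ± 32.2 in KO and 205 ± 141 in Ctrl (SD over 5, 2 and 3 libraries). Slc12a2, Rnf43, Axin2 and Smoc2 followed, with group means between 11.5 and 39.3. Ephb2, Ephb3, Ascl2, Lgr5 and Znrf3 came after them, with group means between 2.23 and 8.86. Over the 10 libraries, the ranges of neighbours in this order overlapped.

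**Figure D1:**
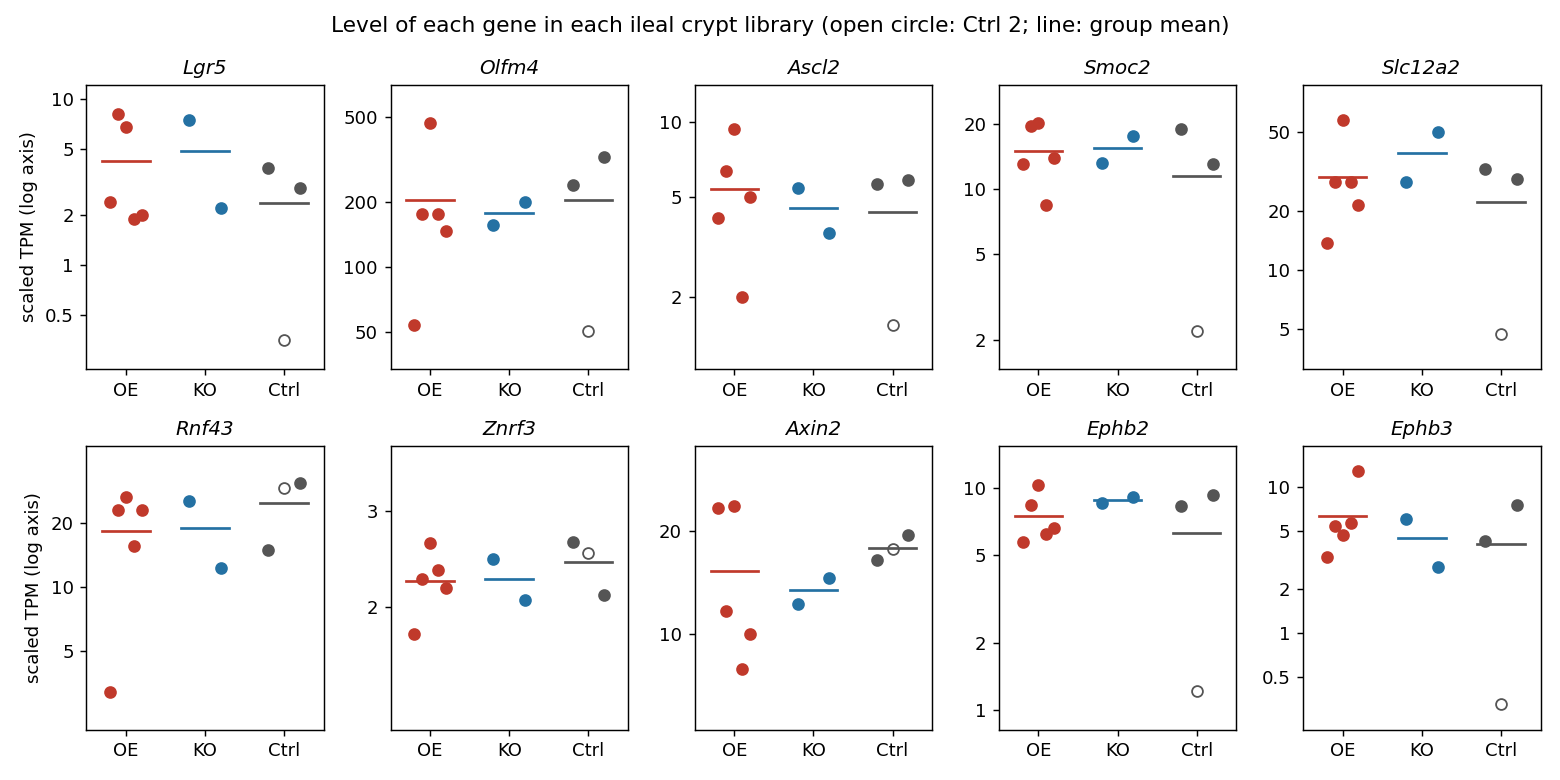
Scaled TPM on a log axis of each of the 10 genes in every library, with OE, KO and Ctrl from left to right in each panel; points are libraries, lines are group means and the open circle is Ctrl 2. Group ranges overlap except for Axin2 in KO against Ctrl, which overlap as deposited, and the open circle is the lowest point for 7 of the 10 genes.

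Lgr5, the R-spondin receptor that gives the stem cell its name, was a low transcript with a broad spread. It was at 2.39, 8.15, 6.81, 1.90 and 1.99 scaled TPM in OE 1 to OE 5, at 7.55 and 2.21 in KO 1 and KO 2, and at 3.84, 0.352 and 2.90 in Ctrl 1 to Ctrl 3. OE 2, OE 3 and KO 1 were high, and the other OE and KO libraries lay below Ctrl 1 and Ctrl 3 and above Ctrl 2. The log2 difference was 0.65 in OE against Ctrl (95% interval -0.61 to 1.91, limma adjusted p = 0.783), 0.83 in KO against Ctrl (-0.74 to 2.41, limma adjusted p = 0.943) and -0.18 in OE against KO (-1.63 to 1.26, limma adjusted p = 1). As folds of scaled TPM + 1, the upper ends of the intervals were 3.75-fold in OE against Ctrl and 5.30-fold in KO against Ctrl. Without Ctrl 2 the log2 differences were 0.082 in OE against Ctrl and 0.27 in KO against Ctrl, and these upper ends 2.57-fold and 3.49-fold. In bulk crypts a smaller number of stem cells and less RNA per stem cell cannot be told apart, for this gene and the 9 others.

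Olfm4, a secreted glycoprotein of crypt base cells that is also under Notch control, had the largest residual SD within genotypes of the 10 genes, 1.13 on the log2 scale. It was at 54.0, 176, 469, 176 and 147 scaled TPM in OE 1 to OE 5, at 156 and 202 in KO 1 and KO 2, and at 241, 50.4 and 325 in Ctrl 1 to Ctrl 3. OE 3 stood above every library, OE 1 and Ctrl 2 far below the rest, and both KO libraries between Ctrl 2 and the other Ctrl libraries. The log2 difference was 0.044 in OE against Ctrl (95% interval -1.51 to 1.60, limma adjusted p = 0.991) and 0.16 in KO against Ctrl (-1.78 to 2.11, limma adjusted p = 0.986). Without Ctrl 2 they were -0.78 and -0.65.

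Ascl2, the transcription factor that maintains the stem cell state, was at 4.12, 6.35, 9.40, 1.99 and 5.03 scaled TPM in OE 1 to OE 5, at 5.46 and 3.60 in KO 1 and KO 2, and at 5.68, 1.54 and 5.86 in Ctrl 1 to Ctrl 3. OE 2 and OE 3 were the highest libraries, OE 4 and Ctrl 2 the lowest, and both KO libraries lay under Ctrl 1 and Ctrl 3. The log2 difference was 0.27 in OE against Ctrl (95% interval -0.72 to 1.26, limma adjusted p = 0.886) and 0.16 in KO against Ctrl (-1.08 to 1.40, limma adjusted p = 0.976). Without Ctrl 2 the differences turned to -0.21 and -0.32.

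Smoc2, a secreted matrix protein of the stem cell signature, was at 13.0, 19.8, 20.3, 8.44 and 13.9 scaled TPM in OE 1 to OE 5, at 13.3 and 17.6 in KO 1 and KO 2, and at 19.1, 2.20 and 13.1 in Ctrl 1 to Ctrl 3. Apart from the low Ctrl 2 and OE 4, the libraries of the 3 genotypes lay close together. Its log2 difference was 0.67 in OE against Ctrl (limma adjusted p = 0.770) and 0.75 in KO against Ctrl (limma adjusted p = 0.943), and without Ctrl 2 these turned to -0.13 and -0.046.

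Slc12a2, a sodium, potassium and chloride carrier of crypt cells, was at 13.7, 27.9, 58.1, 27.9 and 21.4 scaled TPM in OE 1 to OE 5, at 28.0 and 50.5 in KO 1 and KO 2, and at 32.6, 4.71 and 29.0 in Ctrl 1 to Ctrl 3. OE 3 and KO 2 were high, and Ctrl 2 and OE 1 were low. Slc12a2 had the largest log2 difference of the 10 genes in KO against Ctrl, 1.11 (95% interval -0.57 to 2.78, limma adjusted p = 0.943), and it was 0.29 without Ctrl 2. In OE against KO, Slc12a2 again had the largest difference in size, -0.48 (95% interval -2.02 to 1.05, limma adjusted p = 1).

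Rnf43, the first of the feedback regulators, is a membrane ubiquitin ligase that removes Frizzled receptors. It was at 3.19, 22.9, 26.5, 15.6 and 23.2 scaled TPM in OE 1 to OE 5, at 25.5 and 12.3 in KO 1 and KO 2, and at 15.0, 29.1 and 30.9 in Ctrl 1 to Ctrl 3. OE 1 was far below every other library, and Ctrl 2, low for the stem cell markers, was the second highest here. The log2 difference was -0.62 in OE against Ctrl (95% interval -1.92 to 0.68, limma adjusted p = 0.802) and -0.41 in KO against Ctrl (-2.03 to 1.22, limma adjusted p = 0.950). Without OE 1 the OE difference was -0.13.

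Znrf3, the related ligase with the same task, was almost level across all libraries. It was at 1.79, 2.26, 2.62, 2.34 and 2.17 scaled TPM in OE 1 to OE 5, at 2.45 and 2.06 in KO 1 and KO 2, and at 2.64, 2.51 and 2.11 in Ctrl 1 to Ctrl 3. Its highest library was 1.48 times its lowest, where the other 9 genes spanned 3.00 to 38.9 times. Its log2 spread within genotypes was 0.131 (residual SD), smaller than that of all but 0.605% of the genes tested; the pseudocount of 1 compresses the log2 scale at this level. The evenness also rests on the scaling of Ctrl 2, where Znrf3 was at 0.740 TPM as deposited, against 1.48 to 3.22 in the other libraries. Its log2 difference was -0.082 in OE against Ctrl (95% interval -0.56 to 0.39, limma adjusted p = 0.934) and -0.072 in KO against Ctrl (-0.67 to 0.52, limma adjusted p = 0.979). These are the narrowest intervals of the 10 genes.

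Axin2, the scaffold of the beta-catenin destruction complex that is itself a Wnt target, was at 23.3, 11.6, 23.6, 7.86 and 9.98 scaled TPM in OE 1 to OE 5, at 12.2 and 14.6 in KO 1 and KO 2, and at 16.4, 17.6 and 19.4 in Ctrl 1 to Ctrl 3. The Ctrl libraries lay close together, both KO libraries lay below all of them, and the OE libraries split into OE 1 and OE 3 above and OE 2, OE 4 and OE 5 below the other genotypes. Group means were 15.3 ± 7.59 in OE, 13.4 ± 1.66 in KO and 17.8 ± 1.55 in Ctrl (SD, n = 5, 2 and 3 libraries). KO against Ctrl differed by -0.39 on the log2 scale (95% interval -1.37 to 0.59, limma adjusted p = 0.943), with an exact two-sided permutation p of 0.1, the smallest that 2 against 3 libraries can give. Among all genes tested, KO libraries lay entirely below Ctrl libraries for 7.27% and entirely above for 9.09%, and among the 10 genes for 1 and 0. The separation of Axin2 depended on the scaling. As deposited the gene was at 14.8 and 15.3 TPM in KO 1 and KO 2 and at 20.0, 5.19 and 25.4 TPM in Ctrl 1 to Ctrl 3, so that Ctrl 2 was the lowest and the groups overlapped.

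Without Ctrl 2, both KO libraries lay below both remaining Ctrl libraries for 3 of the 10 genes, Olfm4, Ascl2 and Axin2, and above them for 0. Over all genes tested the shares were 13.1% below and 14.0% above. The RefSeq promoters of these 3 genes are shown because Wnt and STAT factors act through short DNA motifs and these were the genes with that pattern, chosen after the values were seen. Each window is the 250 bases before the RefSeq start on GRCm38.p6, 5′ to 3′ on the gene's strand, chr14:80000052-80000301 for Olfm4 (plus strand), chr7:142969265-142969514 for Ascl2 (minus strand) and chr11:108920099-108920348 for Axin2 (plus strand). Capitals would mark a motif match, and there are none.
Olfm4 promoter: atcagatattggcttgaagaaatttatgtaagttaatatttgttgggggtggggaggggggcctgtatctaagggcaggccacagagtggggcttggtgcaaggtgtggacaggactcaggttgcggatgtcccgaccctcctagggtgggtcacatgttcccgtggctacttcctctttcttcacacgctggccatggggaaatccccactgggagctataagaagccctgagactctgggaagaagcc
Ascl2 promoter: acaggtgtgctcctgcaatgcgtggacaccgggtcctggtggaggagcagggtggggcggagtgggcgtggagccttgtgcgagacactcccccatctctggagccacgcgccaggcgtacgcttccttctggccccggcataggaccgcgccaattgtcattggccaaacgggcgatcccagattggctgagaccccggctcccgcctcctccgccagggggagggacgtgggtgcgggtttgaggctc
Axin2 promoter: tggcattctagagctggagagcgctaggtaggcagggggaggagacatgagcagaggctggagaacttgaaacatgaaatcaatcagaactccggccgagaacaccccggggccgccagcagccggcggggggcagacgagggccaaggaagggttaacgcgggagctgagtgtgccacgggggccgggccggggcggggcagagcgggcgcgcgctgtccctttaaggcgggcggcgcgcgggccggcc
The search covered both strands for the TCF/LEF motif, spelled CTTTG followed by AA, AT, TA or TT, and for the STAT motif TTCNNNGAA. The motifs can overlap, since one form of the first, read on the other strand, can lie within the second. RefSeq windows were at hand for 6 of the 10 genes (Olfm4, Ascl2, Rnf43 with 2 starts, Axin2, Ephb2 and Ephb3). None of these 7 windows held either motif, against 14.8% and 7.02% of 32851 windows of all genes; no match says only that these letters are not in this window. Lgr5, Smoc2, Znrf3 and Slc12a2 were not searched. The Olfm4 window lies inside the GENCODE M21 span of the gene, whose annotated start is farther upstream.

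Ephb2, a receptor tyrosine kinase that sorts cells along the crypt axis through ephrin ligands, was at 5.73, 8.37, 10.3, 6.22 and 6.59 scaled TPM in OE 1 to OE 5, at 8.58 and 9.14 in KO 1 and KO 2, and at 8.33, 1.23 and 9.31 in Ctrl 1 to Ctrl 3. Leaving Ctrl 2 aside, it was even across libraries, with the highest 1.80 times the lowest. Its log2 difference was 0.47 in OE against Ctrl (95% interval -0.54 to 1.49, limma adjusted p = 0.806), and -0.25 without Ctrl 2. The KO difference from Ctrl was 0.72 (95% interval -0.55 to 1.99, limma adjusted p = 0.943), and 0.0083 without Ctrl 2.

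Ephb3, the receptor that keeps Paneth cells at the crypt base, was at 3.32, 5.44, 4.73, 5.72 and 12.8 scaled TPM in OE 1 to OE 5, at 6.09 and 2.87 in KO 1 and KO 2, and at 4.29, 0.330 and 7.56 in Ctrl 1 to Ctrl 3. OE 5 was high on its own, and it was also the library with the highest mean of Paneth cell markers, at 10.41 on the log2 scale. Ephb3 had the largest log2 difference of the 10 genes in OE against Ctrl, 0.80 (95% interval -0.48 to 2.08, limma adjusted p = 0.763), and it was 0.017 without Ctrl 2. The KO difference from Ctrl was 0.42 (95% interval -1.19 to 2.02, limma adjusted p = 0.948), and it turned to -0.37 without Ctrl 2.

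**Figure D2:**
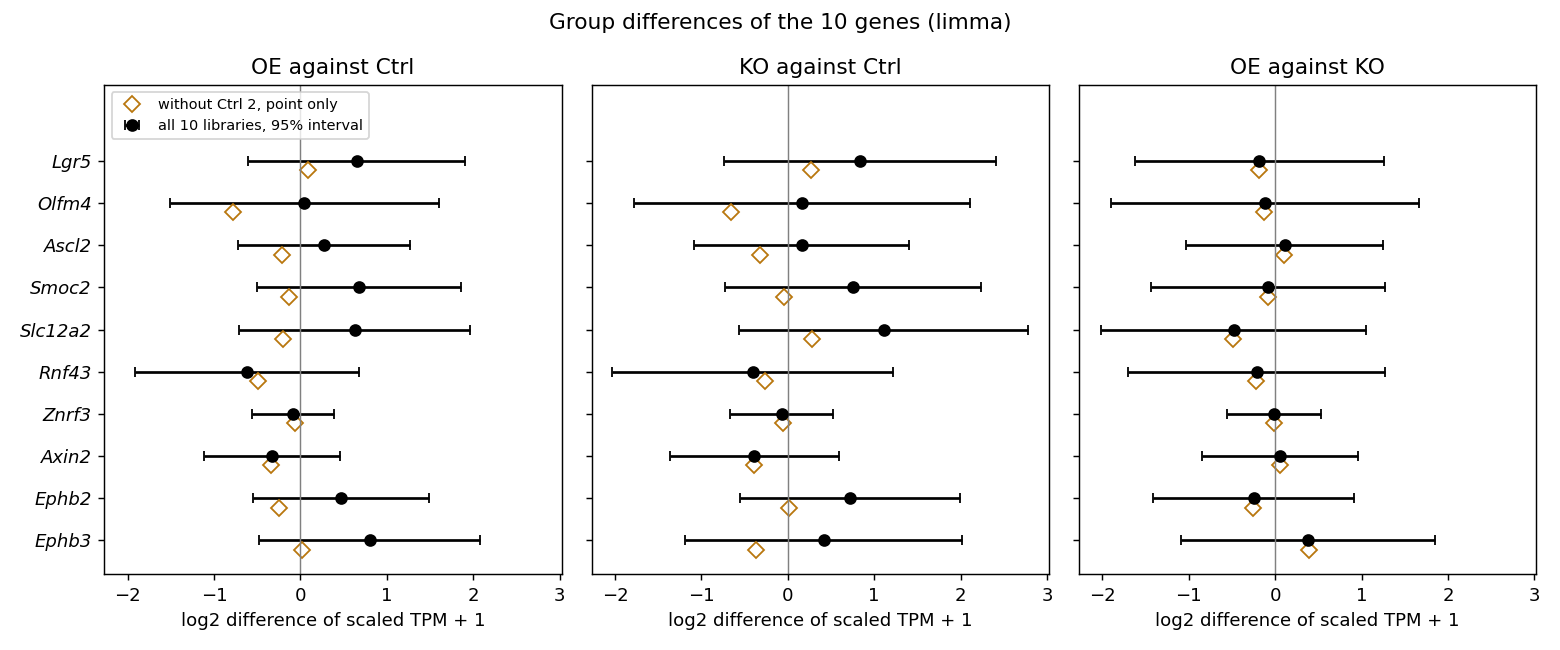
Log2 differences of scaled TPM + 1 for the 10 genes in OE against Ctrl, KO against Ctrl and OE against KO, from limma; filled points with bars are all 10 libraries with 95% intervals, open diamonds are the values without Ctrl 2. Every interval spans 0, and most diamonds of the first 2 panels lie left of their filled points.

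In OE against Ctrl, 7 of the 10 genes had a positive and 3 a negative difference, with a median of 0.37 against 0.021 over all genes tested, and 0 had OE libraries entirely above or below Ctrl libraries, as 2.21% and 1.52% of all genes tested did. Without Ctrl 2 the split was 2 positive and 8 negative, with a median of -0.21, and again 0 of the 10 had separate libraries (3.79% of all genes above and 3.51% below). In KO against Ctrl the split was also 7 to 3, with a median of 0.29 against 0.038 over all genes, and without Ctrl 2 it was 3 to 7, with a median of -0.16. The 2 comparisons share the Ctrl libraries and are not independent of each other. OE against KO, which does not use Ctrl 2 for its means, gave 3 positive and 7 negative differences, a median of -0.10 against -0.0006 over all genes, and 0 genes with separate libraries (4.04% and 4.43% of all genes above and below). Exact two-sided permutation tests of the 30 differences gave p-values between 0.1 and 1, and each was 1 after Benjamini-Hochberg adjustment over the 30. The smallest p such a test can give is 0.0179 for OE against Ctrl, 0.1 for KO against Ctrl and 0.0476 for OE against KO.

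The 10 genes did not move as one block across libraries, and the stem cell markers and feedback regulators parted most in Ctrl 2. In scaled values Ctrl 2 had the lowest level of all 5 stem cell markers and both Ephb receptors, and of none of the 3 feedback regulators. The mean of the stem cell markers on the log2 scale was 3.52, 4.55, 5.10, 3.73 and 3.95 in OE 1 to OE 5, 4.36 and 4.29 in KO 1 and KO 2, and 4.47, 2.33 and 4.36 in Ctrl 1 to Ctrl 3. The mean of Rnf43, Znrf3 and Axin2 was 2.72, 3.31, 3.75, 2.98 and 3.24 in OE 1 to OE 5, 3.41 and 3.10 in KO 1 and KO 2, and 3.33, 3.65 and 3.66 in Ctrl 1 to Ctrl 3. Ctrl 2 was thus at the bottom of the first group and among the highest of the second. The level of the second group in Ctrl 2 rests on the scaling: as deposited, Rnf43, Znrf3 and Axin2 were at 8.57, 0.740 and 5.19 TPM there, with Znrf3 and Axin2 at their lowest of all libraries. The ratio of Axin2 to Lgr5, which no scaling changes, was 50.1 in Ctrl 2 and between 1.43 and 9.77 in the other 9 libraries. Its denominator in Ctrl 2 was Lgr5 at 0.104 TPM as deposited, a value near 0, so that ratio is uncertain. In the same library, dividing cell markers averaged 2.48 on the log2 scale against 3.91 to 4.80 elsewhere, Paneth cell markers 5.23 against 8.07 to 10.41, and enterocyte markers 10.12 against 4.63 to 7.59. The part of cell makeup, and of the mitochondrial share, in the low stem cell markers of Ctrl 2 was not tested. OE 3 was the highest library for 6 of the 10 genes, and OE 1 the lowest for Rnf43 and Znrf3.

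**Figure D3:**
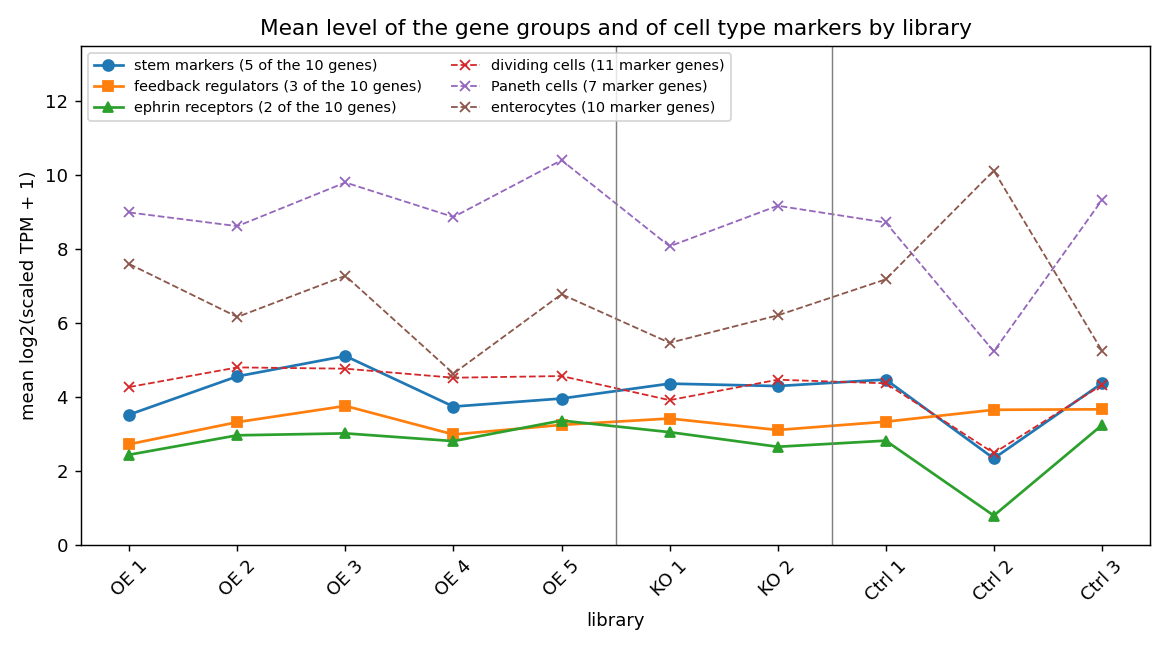
Mean log2(scaled TPM + 1) in each library of the 5 stem cell markers, the 3 feedback regulators and the 2 ephrin receptors (solid lines), with markers of dividing cells, Paneth cells and enterocytes (dashed lines). In Ctrl 2 the stem cell line drops to 2.33 and the ephrin receptor line to 0.78, the feedback line stays at 3.65 in these scaled values, and the enterocyte line peaks at 10.12.

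**Figure D4:**
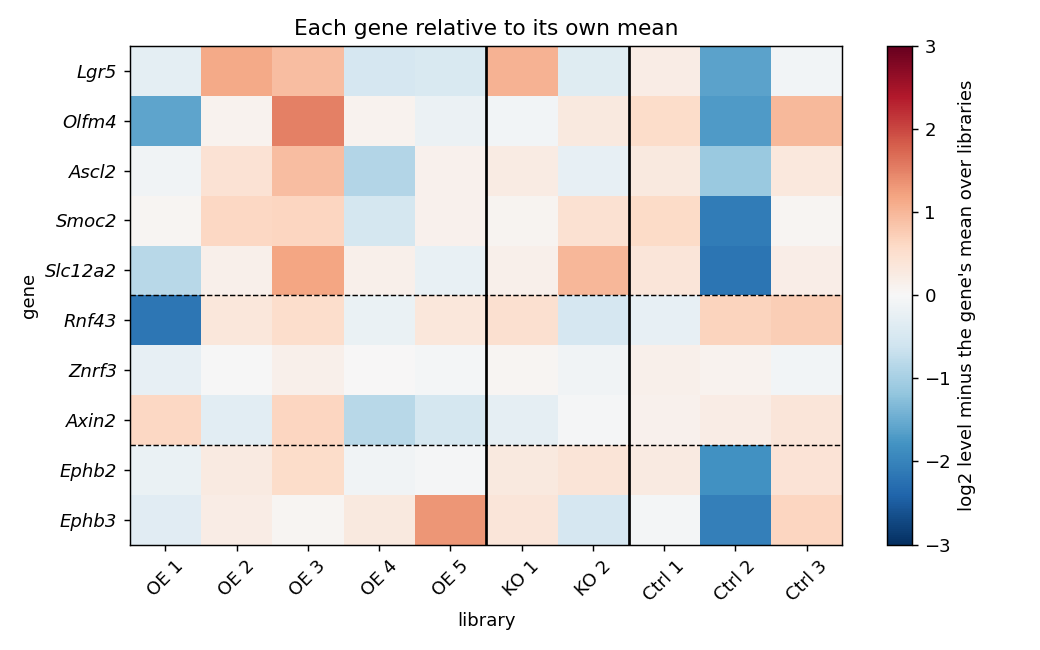
Log2 level of each gene in each library minus that gene's mean over the 10 libraries; solid vertical lines part OE, KO and Ctrl, and dashed lines part stem cell markers, feedback regulators and ephrin receptors. In scaled values the Ctrl 2 column is low for every gene but Rnf43, Znrf3 and Axin2, and OE 1 is low for Rnf43 and Olfm4.

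Over the 45 pairs of genes the median Pearson correlation of log2 levels was 0.446 across the 10 libraries, and 0.439 without Ctrl 2; these are descriptions, since all genes of a library share its depth, cell makeup and scaling. Slc12a2 and Ephb2 varied together, at 0.93 with all libraries and 0.83 without Ctrl 2, and so did Olfm4 and Slc12a2, at 0.88 and 0.84. Lgr5 and Ascl2 reached 0.83 and 0.71, and Rnf43 and Znrf3 0.65 and 0.62. Every pair of a stem cell marker and a feedback regulator had a higher correlation without Ctrl 2. Olfm4 went from 0.45 to 0.78 with Rnf43 and from 0.37 to 0.69 with Znrf3, and Slc12a2 from 0.11 to 0.59 with Znrf3. Of the 45 pairs, 34 were positive with all libraries and 38 without Ctrl 2. The Ephb receptors reached 0.73 with all libraries but -0.14 without Ctrl 2, so their likeness rests on that library. Axin2 was at 0.017 with Lgr5 with all libraries and at 0.17 without Ctrl 2, and negative with Ephb3, at -0.39 and -0.45. With Ascl2 it went from 0.33 to 0.58.

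**Figure D5:**
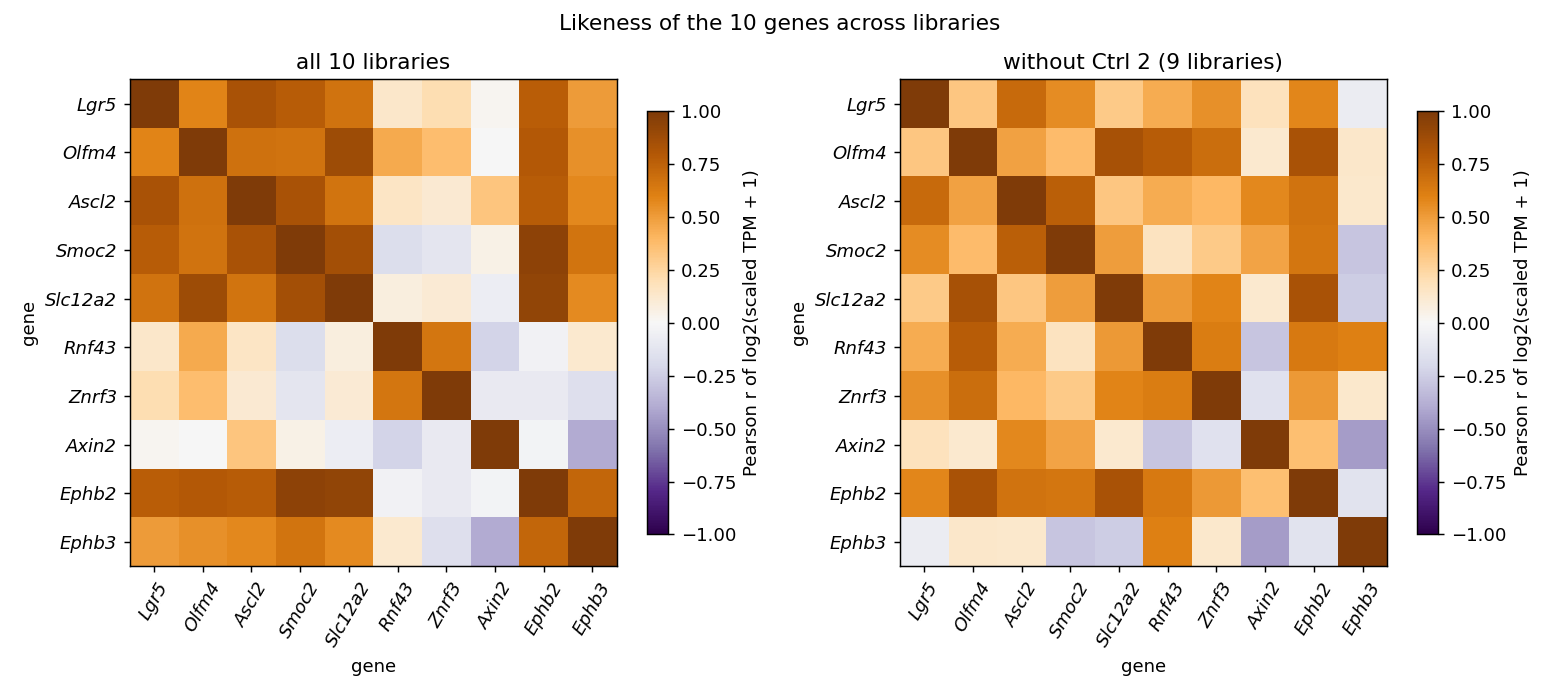
Pearson correlation of log2(scaled TPM + 1) between the 10 genes across all 10 libraries (left) and across 9 libraries without Ctrl 2 (right). Darker orange is a higher positive correlation; Slc12a2 with Ephb2 stays at 0.83 on the right, and Ephb2 with Ephb3 turns to -0.14.

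Among 7336 protein-coding genes with a mean of at least 5 scaled TPM, the 4 most like Lgr5 across the 10 libraries were Ddx27 (Pearson correlation 0.914), Pdcd4 (0.907), Atp9b (0.897) and Bola2 (0.895). Of the other stem cell and Wnt target genes that passed this minimum, the first to appear was Smoc2 at rank 74, followed by Ephb2 at rank 85. Ascl2, at 0.830 with Lgr5 against 0.778 for Smoc2, was not ranked, since its mean was 4.90 scaled TPM. The 5 most like Olfm4, among 7335 such genes, were Sf3b3 (0.970), Ints7 (0.948), Abcf2 (0.926), Cables2 (0.911) and Prep (0.911), and Slc12a2 was at rank 13. Without Ctrl 2, Ddx27, Pdcd4, Atp9b and Bola2 were at 0.888, 0.831, 0.808 and 0.809 with Lgr5, and Smoc2 and Ephb2 at 0.557 and 0.579. The 5 genes most like Olfm4 were then at 0.861 to 0.955. The top genes are the highest of 7336 or 7335 correlations over 10 libraries, so values this high can arise by chance. They are descriptions without a test.

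Within a library the ratio of 2 genes does not depend on the scaling factor. The ratio of Olfm4 to Lgr5 in deposited TPM was 22.6, 21.6, 68.9, 93.0 and 73.6 in OE 1 to OE 5, 20.7 and 91.2 in KO 1 and KO 2, and 62.7, 143 and 112 in Ctrl 1 to Ctrl 3. It was lowest in OE 1, OE 2 and KO 1, and the genotypes overlapped. The value of 143 in Ctrl 2 rests on Lgr5 at 0.104 TPM there, near 0. The ratio of Rnf43 to Znrf3 was 1.79, 10.2, 10.1, 6.69 and 10.7 in OE 1 to OE 5, 10.4 and 5.96 in KO 1 and KO 2, and 5.67, 11.6 and 14.7 in Ctrl 1 to Ctrl 3, with OE 1 alone at the bottom. The ratio of Ephb2 to Ephb3 was 0.514 in OE 5 and at least 1.09 in every other library. These ratios were chosen after the values were seen and are descriptions.

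Other genes of the pathway were read from further lists, and 0 of them passed the limma test in any comparison. Of 10 further genes of the Lgr5+ stem cell signature, 8 were tested, and the 4 with the highest mean were Prom1, a membrane glycoprotein, Cdca7, a gene of dividing cells, Rgmb, a co-receptor for bone morphogenetic proteins, and Soat1, an enzyme that esterifies cholesterol. The median difference of the list was 0.19 in OE against Ctrl and 0.16 in KO against Ctrl. Without Ctrl 2 the medians turned to -0.37 and -0.26, with 7 and 6 of the 8 differences negative. Prom1 was at 31.4 ± 8.95 scaled TPM in OE, 36.4 ± 14.7 in KO and 28.9 ± 13.6 in Ctrl (SD), and the Ctrl mean without Ctrl 2 was 36.8. Of 11 further Wnt target genes 6 were tested, and all 6 differences were positive in OE against Ctrl (median 0.59) and in KO against Ctrl (median 0.42), with 0 called. That count rests on Ctrl 2, which had the lowest level of all 6. Without it, 4 of the 6 differences were negative in each comparison, those of Ccnd2, Cd44, Sox9 and Myc, a transcription factor of cell growth, and the medians turned to -0.18 and -0.15. Among the 6 were Ccnd1 and Ccnd2, cyclins of the cell cycle, Sox9, a factor of progenitor and Paneth cells, and Cd44, a hyaluronan receptor. Ccnd1 was at 36.5 ± 10.5 scaled TPM in OE, 50.3 ± 14.9 in KO and 21.8 ± 15.6 in Ctrl. Its value in Ctrl 2, 4.98, was the lowest of all libraries, and the Ctrl mean without that library was 30.3. Sox9 was at 13.2 ± 3.36 in OE, 14.6 ± 1.95 in KO and 11.7 ± 7.99 in Ctrl, with 3.11 in Ctrl 2 and a Ctrl mean of 16.0 without that library.

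Of the ligands and receptors, none of 8 Wnt ligands passed the filter, and Wnt3a, the ligand of the study's title, was listed at 0 in all libraries. Wnt3 was detected at a low level, 0.153 to 0.332 scaled TPM, in every library but Ctrl 2, where it was at 0. Of 6 R-spondins and Lgr receptors other than Lgr5, Lgr4 alone was tested, at 28.1 ± 5.51 scaled TPM in OE, 44.7 ± 13.1 in KO and 27.7 ± 9.67 in Ctrl (SD). That was above Lgr5 in every library. Of 9 Frizzled and Lrp receptors 5 were tested. Fzd5 was at 23.1 ± 5.62 in OE, 33.6 ± 4.25 in KO and 24.0 ± 4.73 in Ctrl. Lrp6 was at 11.1 ± 2.77 in OE, 17.4 ± 0.0280 in KO and 16.2 ± 2.58 in Ctrl. In scaled values all OE libraries lay below both KO libraries for Lgr4, Fzd5 and Lrp6, as for 4.43% of all genes tested. Both KO libraries lay above all Ctrl libraries for Fzd5 and Fzd7, as for 9.09% of all genes. The libraries of the other tested genes of these lists overlapped in the same comparisons.

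Of 13 genes of the destruction complex and of nuclear Wnt signalling 11 were tested, with medians of 0.030 in OE against Ctrl and 0.10 in KO against Ctrl, and of -0.041 and 0.046 without Ctrl 2. Those with the highest means were Csnk1a1 and Gsk3b, kinases of the complex, Ctnnb1, which encodes beta-catenin, and Tcf7l2, the TCF factor of the crypt. Ctnnb1 was uneven, at 38.9, 47.6, 287, 122 and 33.6 scaled TPM in OE 1 to OE 5, 58.8 and 204 in KO 1 and KO 2, and 89.8, 121 and 50.4 in Ctrl 1 to Ctrl 3. Axin1, the relative of Axin2 that serves the complex without being a classical Wnt target, was singled out after its values were seen. It was at 10.3, 7.84, 11.4, 5.71 and 10.5 scaled TPM in OE 1 to OE 5, 6.10 and 3.72 in KO 1 and KO 2, and 3.52, 0.995 and 4.05 in Ctrl 1 to Ctrl 3. Every OE library lay above every Ctrl library, in scaled and in deposited values, as for 2.21% of all genes tested in scaled values. The log2 difference was 1.47, with a limma adjusted p of 0.755. Ctrl 2 was the lowest library, and without it the difference was 1.07 (limma adjusted p = 0.999).

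Of 6 ephrins and further Ephb receptors 3 were tested. Efnb1, an ephrin ligand, was at 17.9 ± 2.58 scaled TPM in OE, 18.4 ± 2.28 in KO and 18.0 ± 2.27 in Ctrl (SD), and Ephb4 and Efnb2 also had overlapping groups. All 7 genes of the Notch pathway, which acts beside Wnt in the stem cell, were tested, with 0 called. Hes1, a Notch target, was at 27.0 ± 3.57 in OE, 24.4 ± 5.86 in KO and 19.5 ± 6.89 in Ctrl. Its value in Ctrl 2, 12.8, was the lowest of all libraries, and the Ctrl mean without that library was 22.9. Dll1, a Notch ligand, was at 16.6 ± 5.43 in OE, 19.4 ± 11.3 in KO and 16.7 ± 4.37 in Ctrl.

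Cells other than epithelium were measured as well. Macrophage markers summed to 19.0 to 211 scaled TPM in OE, 119 and 193 in KO and 11.4 to 23.0 in Ctrl. Most of the high sums was Lyz2, a lysozyme gene whose reads may be split with its near-identical relative Lyz1 of Paneth cells; without it the other 5 markers summed to 7.38 to 18.4 in OE, 15.4 and 22.4 in KO and 8.62 to 12.7 in Ctrl. Fibroblast markers summed to 13.0 to 109 in OE, 22.9 and 76.3 in KO and 10.6 to 20.5 in Ctrl. In scaled values both KO libraries lay above all Ctrl libraries for both lists, with or without Lyz2. Among all genes tested, this was so for 9.09%. As deposited, the fibroblast sum was 24.0 TPM in KO 2 and 26.5 in Ctrl 3, so these groups overlapped. T cell markers summed to 69.1 to 296 in OE, 20.6 and 57.9 in KO and 35.7 to 153 in Ctrl. All OE libraries lay above both KO libraries, as for 4.04% of all genes tested. B cell markers summed to 20.3 to 180 in OE, 11.6 and 26.3 in KO and 4.33 to 29.6 in Ctrl, with overlapping groups. No marker of these lists passed the limma test, and the part of such cells in the values of the 10 genes was not tested.

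Positions are those of the GENCODE M21 annotation of mm10. Lgr5 (ENSMUSG00000020140) spans chr10:115450311-115587780, Olfm4 (ENSMUSG00000022026) chr14:79984081-80023139, Ascl2 (ENSMUSG00000009248) chr7:142966829-142969264 and Smoc2 (ENSMUSG00000023886) chr17:14279506-14404790. Rnf43 (ENSMUSG00000034177) spans chr11:87662722-87735539, Znrf3 (ENSMUSG00000041961) chr11:5276324-5444847 and Axin2 (ENSMUSG00000000142) chr11:108920349-108950783, so that the 3 feedback regulators share chromosome 11. Ephb2 (ENSMUSG00000028664) spans chr4:136647539-136835988 and Ephb3 (ENSMUSG00000005958) chr16:21204755-21223305. Slc12a2 is on chromosome 18. Lgr5, Smoc2, Rnf43 and Axin2 overlap an annotated gene on the other strand, and Olfm4 and Rnf43 one on their own strand. Whether the counting used strand is not given in the sources used here, so reads of these neighbours cannot be told apart from those of the 5 genes.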

How the data were processed

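Total RNA of ileal crypts was sequenced single-end in 10 libraries. The values deposited by the authors are TPM, per the file headers of 9 libraries. For Ctrl 1, whose header states none, the unit rests on its values and on the other headers. The submitters' processing notes list TopHat, Cufflinks and mm10. Neither the annotation nor the program behind the TPM is given in the sources used here. Deposited TPM summed to 979539 to 994373 per library, so depth is unknown and no counting error can be given. From the TPM, median-ratio factors with a geometric mean of 1 were computed over 11146 genes, and 13056 genes with at least 1 TPM in at least 2 libraries were tested with limma 3.58.1 in R 4.3.3 on the log2 of scaled TPM + 1, using an intensity trend, 3 group means, all 10 libraries and Benjamini-Hochberg adjustment at 0.05. For low genes the added 1 makes changes look smaller on this log2 scale. Single genes were also compared with exact two-sided permutation tests. Symbols were matched by ID to GENCODE M21 for 27475 of 28987 IDs. Promoters are from RefSeq on GRCm38.p6, and the 250 bases before each start were searched.

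The 10 genes and the further lists were chosen with earlier results of these data known. All 10 genes are given in every library; of each further list up to 4 tested genes with the highest mean are named, the 5 genes most like Lgr5 and Olfm4 were listed, of which 1 is not reported here, and Axin1, Myc, the ratios and the macrophage sum without Lyz2 were added after their values were seen. Alternatives were other scalings (TPM as deposited, quantile normalization, TPM without mitochondrial transcripts, factors over epithelial genes), pseudocounts of 0.1 and 5, no filter or one of 5 TPM, fits of 2 groups alone, robust and weighted fits, a fit with a replicate block, a threshold of 0.1, and leaving out libraries.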

Additional observations from a re-analysis of the deposited data

Results flagged for a closer look

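Ephb3 in OE 5, at 12.8 scaled TPM, lay far above the other 4 OE libraries, which were at 3.32 to 5.72. The gap to the nearest of them was 0.747 of the range of the 5 OE libraries, where the 95% critical value is 0.710. Chance alone puts about 1 in 20 groups past that value, and 10 genes were examined. OE 5 also had the highest mean of Paneth cell markers, 10.41 on the log2 scale against 8.62 to 9.80 in the other OE libraries. The part of Paneth cell number in this value was not tested.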

How the results depend on the processing

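None of the 10 genes passed the limma test under any alternative run. The count of all genes called was 0 in each comparison, and moved as follows. In OE against Ctrl it was 1 with only the 2 groups in the fit, 1 without Ctrl 3, OE 3 and OE 4 together, and 0 to 1 when libraries were left out in turn. In KO against Ctrl it was 1 with only the 2 groups, 5 without the filter, and 0 to 2 when libraries were left out. In OE against KO it was 7 without the filter, 1 without Ctrl 3, OE 3 and OE 4, 1 without Ctrl 2 and OE 1 (chosen after seeing the data), and 0 to 2 when libraries were left out. The labels share replicate numbers, but same-numbered libraries did not deviate together (correlations between -0.177 and 0.063). With the replicate block, OE against Ctrl called 3 genes, Axin2 turned to 0.0641 there, and in OE against KO Lgr5 turned to 0.0674 and Ephb3 to -0.25.

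Directions turned under other settings as well, and the cause was not tested. As deposited, which moved the median of all genes to 0.36 in OE against Ctrl and 0.38 in KO against Ctrl, Znrf3 was 0.21 and 0.23, Axin2 was 0.12 and 0.0876, and Rnf43 in KO against Ctrl was 0.0946. These values lie below that shift. With library weights, in OE against Ctrl, Olfm4 was -0.42, Ascl2 -0.0347, Smoc2 -0.0477, Slc12a2 -0.0443 and Ephb2 -0.0405. For KO against Ctrl they gave -0.40 for Olfm4, -0.22 for Ascl2, -0.0379 for Smoc2 and -0.0413 for Ephb3. For OE against KO they gave 0.00161 for Znrf3 and -0.00468 for Axin2. Without Ctrl 2 and OE 1, in OE against Ctrl, Olfm4 was -0.39, Ascl2 -0.17, Smoc2 -0.10, Rnf43 0.00162 and Ephb2 -0.18. The same setting in KO against Ctrl gave Olfm4 -0.65, Ascl2 -0.32, Smoc2 -0.0466 and Ephb3 -0.37. In OE against KO, Olfm4 was then 0.27, Rnf43 0.27, Znrf3 0.0392 and Axin2 -0.13. Factors over epithelial genes gave -0.0896 for Olfm4 in OE against Ctrl, and -0.0469 for Ascl2 and -0.14 for Axin2 in OE against KO. Without Ctrl 3, OE 3 and OE 4, Smoc2 was 0.00638 in OE against KO.

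When libraries were left out in turn, the median of the 10 genes ranged from -0.21 to 0.70 in OE against Ctrl, -0.16 to 0.83 in KO against Ctrl and -0.28 to 0.0084 in OE against KO. In OE against Ctrl, Olfm4 ranged from -0.78 to 0.56, Ascl2 from -0.21 to 0.51, Smoc2 from -0.13 to 1.20, Slc12a2 from -0.20 to 1.08 and Ephb2 from -0.25 to 0.86. In KO against Ctrl, Olfm4 ranged from -0.65 to 0.68, Ascl2 from -0.32 to 0.40, Smoc2 from -0.0455 to 1.28, Rnf43 from -0.91 to 0.0929, Znrf3 from -0.16 to 0.0147 and Ephb3 from -0.37 to 0.97. In OE against KO, Lgr5 ranged from -0.89 to 0.52, Olfm4 from -0.50 to 0.28, Ascl2 from -0.14 to 0.36, Smoc2 from -0.27 to 0.11, Rnf43 from -0.71 to 0.29, Znrf3 from -0.0981 to 0.0770, Axin2 from -0.12 to 0.24 and Ephb3 from -0.0569 to 0.82. Znrf3 gave no value under the filter of 5 TPM. With 2 KO libraries, unknown depth and this spread, changes of the size inside the intervals cannot be told from none.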
